A study of Mus musculus with 2 samples.

Results

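The genes described here encode the subunits of heterotrimeric G proteins and the regulators of G protein signalling (RGS proteins), in neurons of the mouse spiral ganglion. They were taken from the deposited expression table by symbol: names that start with Gna, or with Gnb, Gng or Rgs followed by a digit. This gave 41 of the 14425 listed genes. There were 11 alpha, 5 beta and 8 gamma subunit genes, 13 RGS genes and 2 genes for proteins that bind R7-type RGS proteins. The last 2 symbols, *Gnb1l* and *Gnb2l1*, met the rule by name only: *Gnb2l1* encodes RACK1, a scaffold protein of the ribosome, and neither encodes a beta subunit of a G protein.

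The study measured single-cell RNA of spiral ganglion neurons, the cells that link hair cells of the cochlea to the brainstem, with 1 library per genotype. The control library, iCON, came from Runx1-CreER/+; Ai14/+ mice, and the other library, iCKO, from Runx1-CreER/Runx1F; Ai14/+ mice. Animals of both groups carried the tamoxifen-inducible Cre recombinase at *Runx1* and the Ai14 tdTomato reporter, received tamoxifen on postnatal day 1, and were used on postnatal days 27 to 29. The tissue came from both sexes, was dissociated with collagenase and papain and sorted for tdTomato, which marks cells in which the driver had been active, and entered the 10x Genomics 3′ assay (version 3). The number of animals behind each library was not stated. With 1 library per group no test was possible. Each value below therefore describes these 2 libraries, intervals cover counting error only, and cells are not replicates of a genotype.

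A receptor that binds its ligand loads GTP onto the alpha subunit of a heterotrimeric G protein, and the alpha subunit and the beta-gamma pair then act on enzymes and channels. Gs-type alpha subunits stimulate adenylyl cyclase, Gi/o-type subunits inhibit it and free beta-gamma pairs that act on ion channels, and Gq/11-type subunits activate phospholipase C. RGS proteins speed up the hydrolysis of GTP by Gi/o and Gq alpha subunits and so shorten the signal. In sensory neurons these proteins couple transmitter receptors to channels and to release at synapses.

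The iCON library held 462 cells and 22011292 UMIs (unique molecular identifiers, which count RNA molecules), with a median of 49726 per cell. The iCKO library held 407 cells and 13743824 UMIs, with a median of 33602. All 8 neuron markers were listed, with a summed level of 18099 CPM in iCON and 22622 in iCKO. A level is the mean over cells of CPM, UMIs per 1000000 UMIs of the cell, and is not divided by gene length, so that levels of different genes are not ranked here. RNA of the targeted gene, *Runx1*, was at 86.7 CPM in iCON and at 112 CPM, a higher level, in the library labelled iCKO. Whether the *Runx1* UMIs came from recombined or intact alleles was not tested. The libraries are therefore called by their labels, and no direction rests on a loss of *Runx1* RNA. They also differed in the share of cells with *Xist* and no Y-linked RNA, 54.5% and 78.4%, and in the summed level of 6 markers of Schwann or satellite glia (*Mbp*, *Pmp22*, *Prx*, *Mag*, *Sox10* and *Apoe*), 1447 and 868 CPM. The summed level of 10 genes of the dissociation response was 324 CPM in iCON and 256 in iCKO. The 5 markers of fibroblast or bone summed to 165 CPM in iCON and 131 CPM in iCKO. Endothelial, myeloid, erythroid and hair cell markers were scarce. Of these, 1 of 3 endothelial and 1 of 5 myeloid markers were listed, both under 0.3 CPM in each library. None of 4 erythroid markers was listed, and the 3 hair cell markers listed summed to 3.46 and 3.78 CPM.

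Cells were placed in ranges of *Lypd1* and *Calb2*, markers of type Ic and type Ia spiral ganglion neurons. Lypd1-high cells had at least 1000 CPM of *Lypd1*. Calb2-high cells had under 100 CPM of *Lypd1* and at least 10000 CPM of *Calb2*, and Calb2-intermediate cells had under 100 CPM of *Lypd1* and 1000 to under 10000 CPM of *Calb2*. In iCON these were 180, 85 and 139 cells, with 58 cells outside the 3 ranges. In iCKO they were 126, 201 and 52 cells, with 28 outside. The Calb2-high range thus held 18.4% of iCON and 49.4% of iCKO cells. These are ranges and not cell types. Within 20% of the *Calb2* cut of 10000 CPM lay 18 iCON cells just below and 5 just above, and 23 and 22 iCKO cells, whereas 0 and 2 iCON cells and 3 and 5 iCKO cells lay as near to the *Lypd1* cut of 1000 CPM.

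The members past the limit used below, in at least 1 comparison of ranges, were *Rgs12* and *Rgs10*, both of the R12 family of RGS proteins, and *Gnao1*, the alpha subunit of Go. For each of them 1 promoter is shown, because their levels differed between the *Lypd1* and *Calb2* ranges. *Rgs12* lies at GRCm38 chromosome 5, 34949445 to 35039644, plus strand. *Rgs10* lies at chromosome 7, 128373621 to 128418758, minus strand, and *Gnao1* at chromosome 8, 93809966 to 93969388, plus strand. The stretches below run from 250 bases before to 50 bases after a gene start given by RefSeq (GRCm38.p6), 5′ to 3′ on the strand of the gene. They are chr5:34949198-34949497 (plus strand) for *Rgs12*, chr7:128418123-128418422 (minus strand) for *Rgs10* and chr8:93810588-93810887 (plus strand) for *Gnao1*. For each gene the RefSeq entry lowest on the chromosome was taken, and any other entry is not shown. The *Rgs10* and *Gnao1* stretches lie wholly inside the gene spans given above, so other starts may lie before them. Capitals mark GC boxes, searched as GGGCGG or its reverse complement CCGCCC on both strands.
Rgs12: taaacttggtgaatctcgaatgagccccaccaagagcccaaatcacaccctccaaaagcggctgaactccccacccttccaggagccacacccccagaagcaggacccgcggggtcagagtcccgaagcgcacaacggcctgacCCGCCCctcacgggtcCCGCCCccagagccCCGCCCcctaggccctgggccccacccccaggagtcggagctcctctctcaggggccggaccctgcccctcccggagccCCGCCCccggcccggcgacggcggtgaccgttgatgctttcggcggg
Rgs10: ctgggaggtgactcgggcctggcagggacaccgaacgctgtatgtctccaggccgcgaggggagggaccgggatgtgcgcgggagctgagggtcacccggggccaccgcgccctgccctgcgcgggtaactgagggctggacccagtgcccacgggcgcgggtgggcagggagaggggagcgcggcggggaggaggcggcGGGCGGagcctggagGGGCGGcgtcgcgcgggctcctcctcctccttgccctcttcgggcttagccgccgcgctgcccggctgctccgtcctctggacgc
Gnao1: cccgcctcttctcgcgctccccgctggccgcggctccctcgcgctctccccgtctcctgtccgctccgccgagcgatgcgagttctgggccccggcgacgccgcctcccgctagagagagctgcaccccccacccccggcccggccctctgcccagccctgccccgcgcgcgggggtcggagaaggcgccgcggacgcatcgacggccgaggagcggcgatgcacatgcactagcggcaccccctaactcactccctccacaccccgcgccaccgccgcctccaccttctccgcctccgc

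The *Rgs12* stretch held 4 GC boxes, the *Rgs10* stretch held 2 and the *Gnao1* stretch 0. GC boxes were found in 35.7% of all 32851 RefSeq promoters of this length and in 25 of the 44 promoters of 32 member genes that had an entry. All 3 stretches were rich in CG dinucleotides, with 23 in *Rgs12*, 34 in *Rgs10* and 42 in *Gnao1*, where the median over all promoters was 7. The letters TGTGGT or ACCACA, the core bound by RUNX factors, occur in 16.8% of all promoters and in 5 of the 44 member promoters, those of *Gna12*, *Gng12*, *Rgs8* and *Gnb2l1*. They do not occur in the 3 stretches shown, which says only that these letters are absent from these windows.

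The first comparison was between the libraries, over all cells. *Gnal* and *Gnao1* were the members that lay past a log2 ratio of 0.5 among the 16 members with enough RNA, which means a mean of at least 50 CPM with a UMI found in at least 25% of its cells in at least 1 of the groups compared. Both were higher in iCKO and met this minimum in iCKO only, so that their number among the 16 is a description and supports nothing. Of all 3761 genes with enough RNA, 4.36% lay past this ratio in either direction and 1.62% were higher in iCKO. Ratios use the means with 5 CPM added to each, and the interval given after a ratio is the 95% counting interval of summed UMIs without that addition. The median log2 ratio was -0.08 over the 16 members and 0.01 over all genes.

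*Gnal* encodes the alpha subunit of Golf, a Gs-type protein that stimulates adenylyl cyclase and is best known from olfactory and striatal neurons. Its level was 42.4 CPM in iCON (SD over cells 40.6) and 87.6 CPM in iCKO (SD 62.6), a log2 ratio of 0.97 (0.94 to 1.19). Cells of the libraries overlapped widely: the middle 50% of cells lay between 17.9 and 58.6 CPM in iCON and between 36.5 and 126 CPM in iCKO. The higher *Gnal* level of iCKO was seen in each range. It was 36.7 CPM in iCON and 77.2 in iCKO among Lypd1-high cells, a log2 ratio of 0.98 (0.92 to 1.36). Among Calb2-intermediate cells the levels of *Gnal* were 38.4 and 68.6 CPM, a log2 ratio of 0.76 (0.60 to 1.26), and among Calb2-high cells 74.3 and 102 CPM, a log2 ratio of 0.43 (0.30 to 0.69). In Y-linked cells these ratios were 0.29, 0.25 and 0.14, with 20, 16 and 36 cells from iCKO. With the 3 ranges weighted equally in both libraries, the *Gnal* ratio over all cells was 0.68. It was 1.19 in *Xist*-only cells and 0.58 in cells that held Y-linked RNA but no *Xist*. The part of sex in the *Gnal* difference was not tested. *Gnal* shares its strand with 2 annotated genes inside its span, *Chmp1b* and *AC140336.2*, and whether reads of these were told apart is not given in the sources used here.

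*Gnao1* encodes the alpha subunit of Go, an abundant G protein of neurons that links receptors to calcium and potassium channels. Its level was 33.1 CPM in iCON (SD over cells 38.4) and 60.1 CPM in iCKO (SD 51.0), a log2 ratio of 0.77 (0.81 to 1.10). In Calb2-high cells the *Gnao1* levels of the libraries were close, 69.6 CPM in iCON and 77.4 CPM in iCKO, a log2 ratio of 0.14 (-0.03 to 0.38). In Lypd1-high cells the levels of *Gnao1* were 16.8 and 42.5 CPM, a log2 ratio of 1.12 (1.12 to 1.76), with neither library at 50 CPM, and the ratio was 0.52 in Y-linked cells. In Calb2-intermediate cells they were 21.8 and 29.9 CPM. With the ranges weighted equally the *Gnao1* ratio over all cells was 0.42, below the ratio of 0.5 used to call it.

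**Figure D1:**
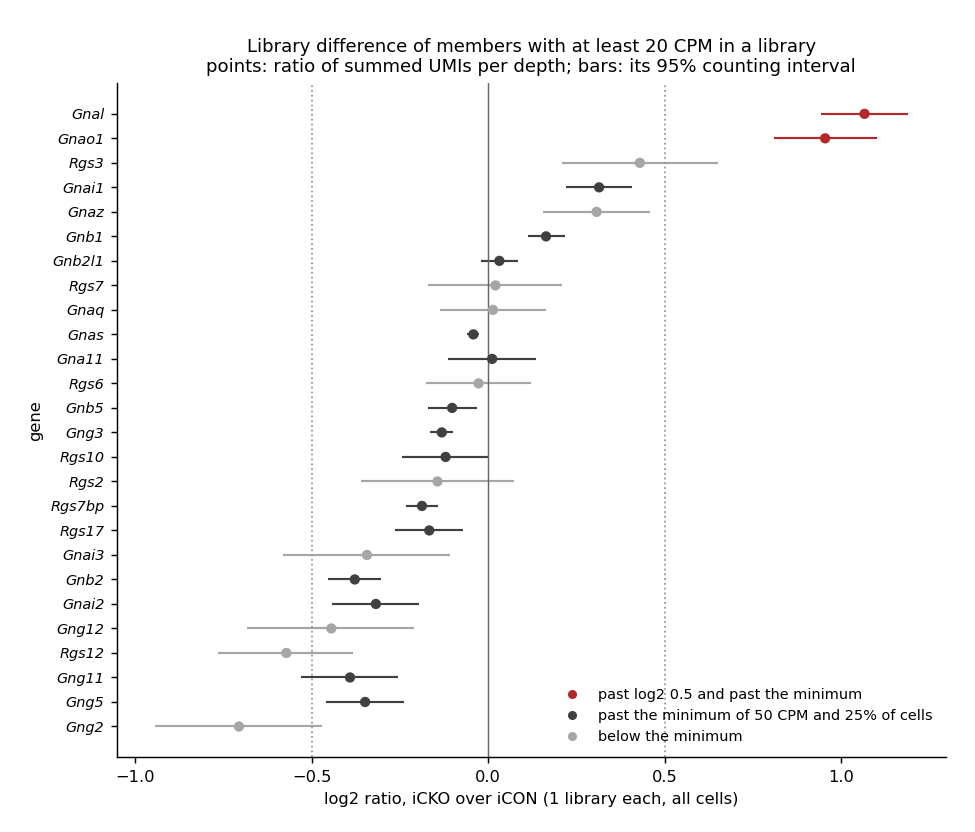
Log2 ratio of iCKO over iCON for the members with at least 20 CPM in a library (vertical axis), over all cells. Points are ratios of summed UMIs per UMI of the library, bars the 95% counting interval, dotted lines log2 ratios of 0.5 in either direction, and colours the call from means over cells. *Gnal* and *Gnao1* stand to the right of all other members.

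The other alpha subunits differed less between the libraries. *Gnai1*, which inhibits adenylyl cyclase, was at 93.2 CPM in iCON and 118 CPM in iCKO, a log2 ratio of 0.33. *Gnai2*, of the same class, was at 80.1 and 59.6 CPM, a log2 ratio of -0.40. *Gnai3* and *Gnaz*, the latter a slow Gi-type subunit, stayed below the minimum, with 20.8 and 16.5 CPM for *Gnai3* and 36.4 and 45.8 CPM for *Gnaz*. The 5 Gi/o genes summed to 264 CPM in iCON and 300.3 CPM in iCKO. *Gnas*, the general Gs alpha subunit, was at 3157 and 3118 CPM, a log2 ratio of -0.02. *Gnas* is an imprinted locus with an antisense gene, *Nespas*, and several transcripts that a 3′ assay does not separate. *Gna11*, of the Gq/11 class, was at 64.4 and 63.5 CPM, and its relative *Gnaq* at 44.8 and 44.2 CPM. Of the G12/13 class, which acts on exchange factors of small GTPases, *Gna13* was at 16.1 and 13.9 CPM and *Gna12* had 14 UMIs in iCON and 11 in iCKO.

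Among the beta subunits, *Gnb1* was at 323 CPM in iCON and 361 CPM in iCKO, a log2 ratio of 0.15. *Gnb2* was at 204 and 156 CPM, a log2 ratio of -0.38 (-0.45 to -0.30). *Gnb5*, the divergent beta subunit that pairs with R7-type RGS proteins in place of a gamma subunit, was at 204 and 194 CPM. *Gnb4* had 50 and 17 UMIs and *Gnb3*, known from retinal cones and taste cells, had 2 and 3. The beta genes summed to 734 CPM in iCON and 712 CPM in iCKO. The gene for RACK1, *Gnb2l1*, was at 344 and 352 CPM, and *Gnb1l* had 45 and 21 UMIs.

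Among the gamma subunits, which anchor the beta-gamma pair in the membrane, *Gng3*, a neuronal gamma subunit, was at 892 CPM in iCON and 835 CPM in iCKO, a log2 ratio of -0.10. *Gng5* was at 96 and 69.9 CPM, a log2 ratio of -0.43, and *Gng11* at 64.2 and 46.6 CPM, a log2 ratio of -0.42. The remaining 5 were below the minimum. *Gng2* was at 27.8 and 15.2 CPM, *Gng12* at 22.9 and 16.1 CPM, *Gng7* at 15.3 and 14 CPM, *Gng10* at 13.9 and 8.45 CPM and *Gng13* at 2.05 and 2.77 CPM. The lower *Gng5* and *Gng11* of iCKO stand beside its lower sum of the 6 glia markers, 868 CPM against 1447 in iCON, whose part in these levels is not reported here.

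Among the RGS genes, *Rgs17*, a RZ-type protein that acts on Gi and Gz, was at 112 CPM in iCON and 97.9 CPM in iCKO, and *Rgs10* at 68.5 and 63.4 CPM. *Rgs12* was at 34.1 and 24.3 CPM, a log2 ratio of -0.42, below the minimum. With the ranges weighted equally this *Rgs12* ratio was -0.06. Of the R7 type, *Rgs6* was at 46.5 and 45.0 CPM, *Rgs7* at 26.9 and 27 CPM, *Rgs11* at 16.8 and 13.4 CPM, and *Rgs9*, best known from photoreceptors and striatum, had 19 and 13 UMIs. *Rgs7bp*, which anchors R7-type proteins in the membrane, was at 481 and 431 CPM, a log2 ratio of -0.16, and *Rgs9bp* had 4 UMIs and 1 UMI. Of the R4 type, *Rgs2* was at 22.4 and 20.4 CPM and *Rgs3* at 17 and 22.7 CPM, while *Rgs4* had 6 UMIs and 1 UMI and *Rgs8* 7 and 1. The RZ-type genes *Rgs19* and *Rgs20* were at 2.61 and 3.97 CPM and at 5.25 and 4.94 CPM.

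**Figure D2:**
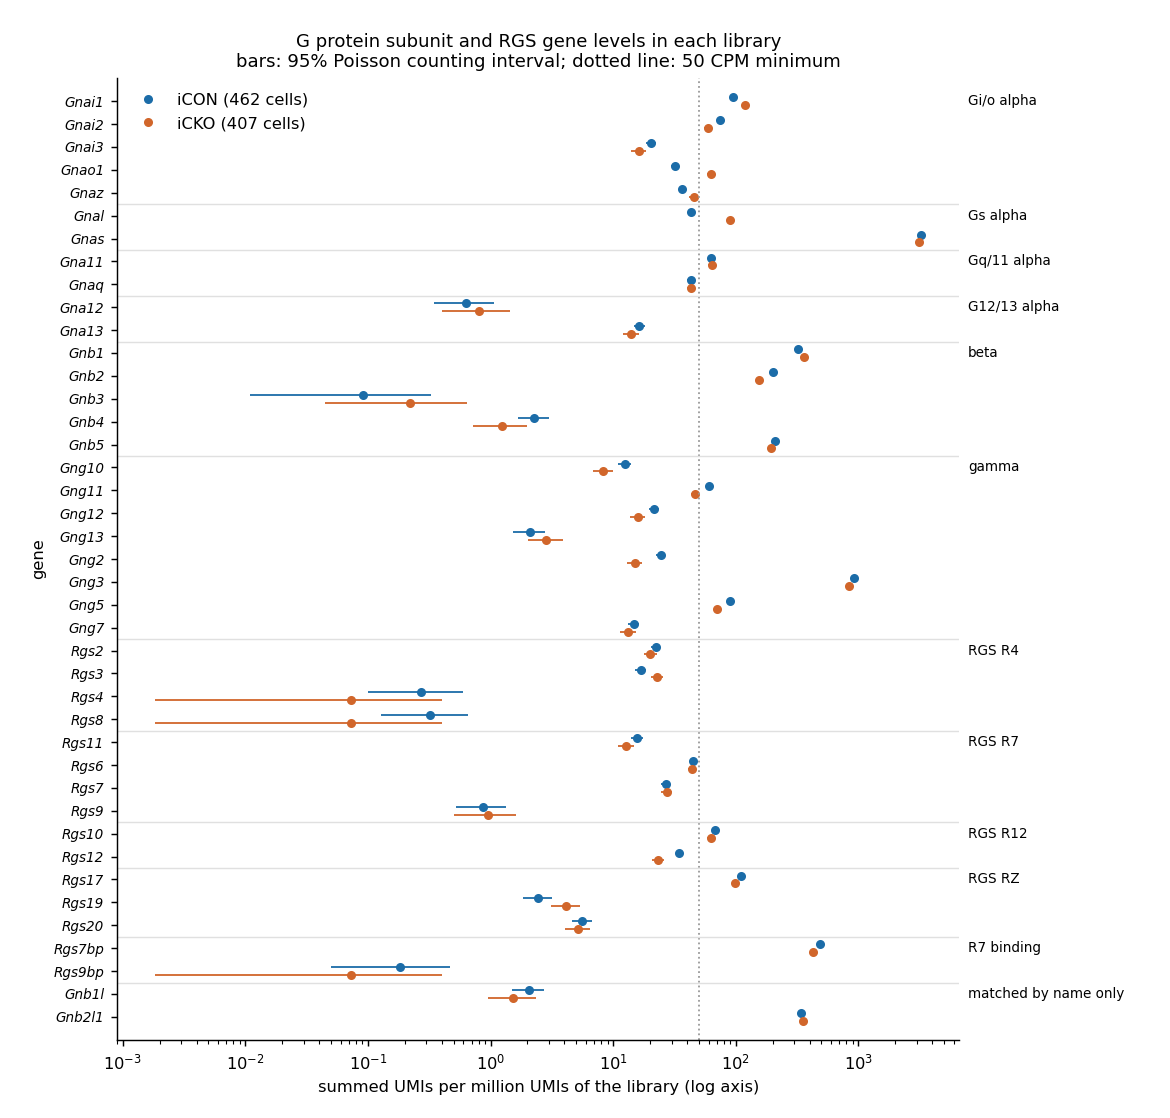
Level of each of the 41 genes in iCON (462 cells) and iCKO (407 cells), as summed UMIs per 1000000 UMIs of the library on a log axis, by family. Bars are 95% Poisson intervals and the dotted line marks 50 CPM. For most genes the points of the libraries lie close together, while *Gnal* and *Gnao1* stand to the right in iCKO.

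Next, the *Lypd1* and *Calb2* ranges were compared within each library, with a log2 ratio of 1 as the limit. In iCON, 3 of 18 members lay past it between Lypd1-high and Calb2-high cells: *Rgs12* and *Rgs10* were higher and *Gnao1* was lower in Lypd1-high cells. Of all genes with enough RNA 2.57% lay past it. The 3 members each met the minimum only in the range where they are high. Their number is therefore a description and supports nothing. In iCKO, 1 of 16 members, *Rgs10*, lay past it, where all genes gave 1.5%. There *Rgs10* too met the minimum only in Lypd1-high cells, where it is high, so this count supports nothing. *Lypd1* and *Calb2*, which define the ranges, are among all genes.

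*Rgs12*, a large RGS protein with several binding domains that acts on Gi/o subunits, had the widest ratio of all 41 members between Lypd1-high and Calb2-high cells, in both libraries. In iCON its level was 66.1 CPM in Lypd1-high cells, 19 in Calb2-intermediate cells and 4.82 in Calb2-high cells. The 85 Calb2-high cells of iCON held 22 *Rgs12* UMIs in all, and the upper quartile of these cells was at 0. The log2 ratio of *Rgs12* in Lypd1-high over Calb2-high cells was 2.86 (3.14 to 4.43), which the added 5 CPM pulls towards 0. In iCKO the *Rgs12* levels had the same order, 48.2, 29.4 and 8.31 CPM. The log2 ratio of Lypd1-high over Calb2-high cells in iCKO was 2.0 (2.10 to 2.99), with *Rgs12* just under the minimum of 50 CPM. Against Calb2-intermediate cells, *Rgs12* in Lypd1-high cells of iCON had a log2 ratio of 1.57 (1.53 to 2.11), and was the 1 of 15 members past the limit, against 0.723% of all genes. In both comparisons of iCON *Rgs12* met the minimum only in Lypd1-high cells, where it is high. The same ratio of *Rgs12* in iCKO was 0.63 (0.20 to 1.17), and it was 0.21 in *Xist*-only and 2.11 in Y-linked cells, the latter with 20 and 16 cells. With the cells of either sex together, 0 of 15 members and 0.682% of all genes lay past the limit.

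*Rgs10*, a small R12-type protein that acts on Gi subunits, had the same order of levels. In iCON it was at 98.9 CPM in Lypd1-high, 47.6 in Calb2-intermediate and 21.6 in Calb2-high cells, and in iCKO at 94.3, 55.8 and 37.6 CPM. The log2 ratio of *Rgs10* in Lypd1-high over Calb2-high cells was 1.97 (1.87 to 2.48) in iCON and 1.22 (1.11 to 1.57) in iCKO. Over Calb2-intermediate cells it was 0.98 and 0.71. In iCON the lower quartile of *Rgs10* over Lypd1-high cells, 46.2 CPM, lay above the upper quartile over Calb2-high cells, 32.4 CPM. In iCKO these quartiles overlapped, at 43.5 and 58.3 CPM. The 2 R12 genes summed to 165 CPM in Lypd1-high and 26.4 CPM in Calb2-high cells of iCON, and to 142 and 45.9 CPM in iCKO.

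*Gnao1* was highest in Calb2-high cells. In iCON it was at 16.8 CPM in Lypd1-high, 21.8 in Calb2-intermediate and 69.6 in Calb2-high cells. The log2 ratio of *Gnao1* in Lypd1-high over Calb2-high cells was -1.77 (-2.37 to -1.79), and in Calb2-intermediate over Calb2-high cells -1.48 (-2.01 to -1.42). Between the latter ranges *Gnao1* was the 1 of 16 members past the limit in iCON, where all genes gave 1.13%. In both comparisons of iCON *Gnao1* met the minimum only in Calb2-high cells, where it is high. In iCKO *Gnao1* was at 42.5 CPM in Lypd1-high, 29.9 in Calb2-intermediate and 77.4 in Calb2-high cells. The order of the first 2 of these is not settled, since their log2 ratio of 0.45 was -0.02 in Y-linked cells. The log2 ratio of *Gnao1* in Calb2-intermediate over Calb2-high cells of iCKO was -1.24 (-1.78 to -0.90), the 1 of 17 members past the limit against 0.508% of all genes. In Lypd1-high over Calb2-high cells of iCKO it was -0.79 (-1.06 to -0.57). In iCKO too *Gnao1* met the minimum only in Calb2-high cells, so its place in these counts supports nothing.

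Other measures also differed between the ranges. The 6 glia markers summed to 1525 CPM in Lypd1-high, 1461 in Calb2-intermediate and 1125 in Calb2-high cells of iCON, and to 1021, 892 and 795 CPM in iCKO, and the 10 genes of the dissociation response to 360, 350 and 248 CPM and to 322, 307 and 205 CPM. Of the glia markers *Mag* was at 0 in iCON Calb2-high cells and in iCKO Lypd1-high and Calb2-intermediate cells. The part of glial RNA in these differences is not reported here, and that of the dissociation response was not tested.

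**Figure D3:**
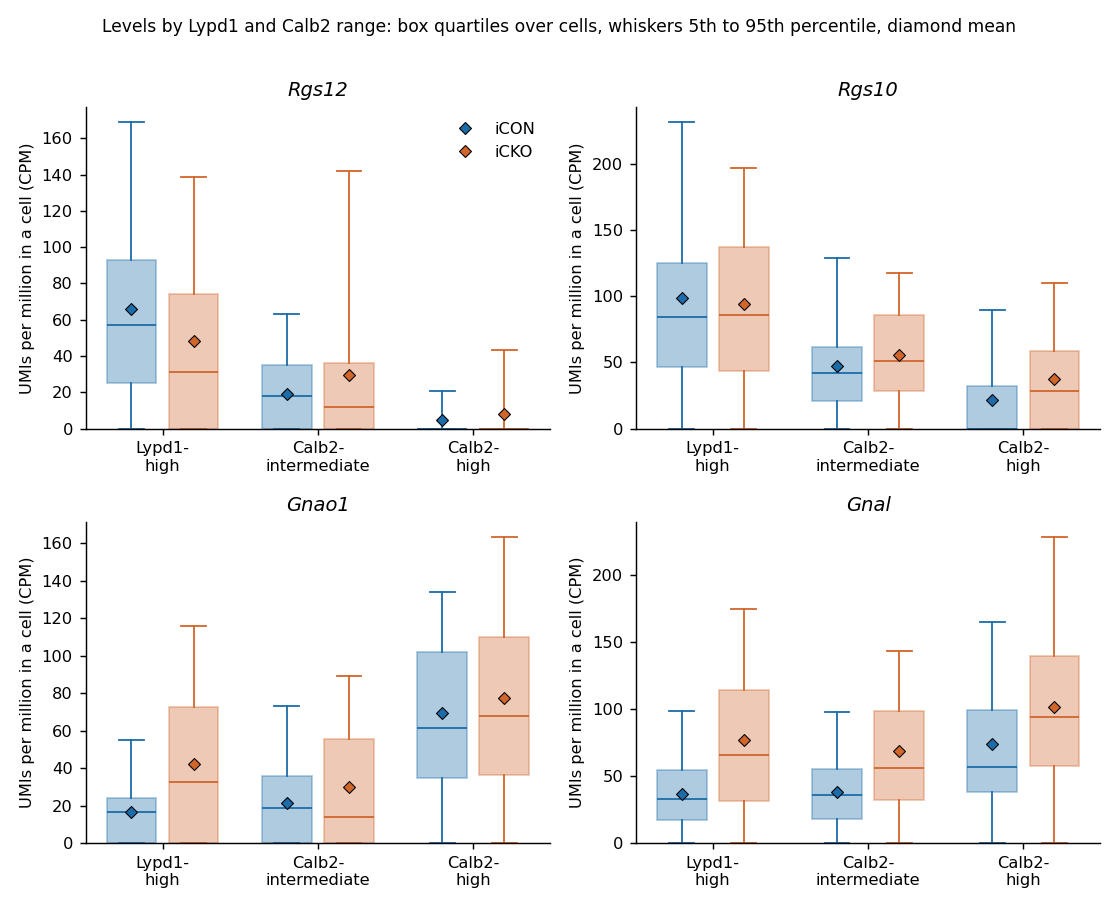
CPM per cell of *Rgs12*, *Rgs10*, *Gnao1* and *Gnal* in Lypd1-high, Calb2-intermediate and Calb2-high cells of iCON and iCKO. Boxes are quartiles, whiskers the 5th to 95th percentile of cells and diamonds the mean; *Rgs12* and *Rgs10* step down from left to right in both libraries, and *Gnao1* and *Gnal* have their highest means in Calb2-high cells.

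Other members differed between the ranges by less than the limit, or were below the minimum. *Gnal* was higher in Calb2-high than in Lypd1-high cells of both libraries, with log2 ratios of -0.93 (-1.23 to -0.77) in iCON and -0.38 (-0.54 to -0.16) in iCKO. *Rgs7bp* was at 608 CPM in Lypd1-high, 460 in Calb2-intermediate and 356 in Calb2-high cells of iCON, and at 543, 464 and 361 CPM in iCKO. *Gng3* followed the same order, with 1074 CPM, 814 and 688 in iCON and 993, 805 and 730 in iCKO. *Gnb5*, the partner of the R7 proteins, was at 228, 221 and 167 CPM in iCON and at 209, 206 and 183 CPM in iCKO. In Y-linked cells of iCKO the *Gnb5* ratios of Lypd1-high and of Calb2-intermediate over Calb2-high cells turned to -0.03 and -0.09, from 0.19 and 0.17. The R7-type *Rgs6* ran the other way, with 33.6, 43.8 and 62.5 CPM in iCON and 33.5, 40.8 and 52.9 CPM in iCKO. In iCKO the log2 ratio of *Rgs6* in Lypd1-high over Calb2-intermediate cells was -0.25 (-0.74 to 0.15) and turned to 0.35 in Y-linked cells, so the order of these 2 ranges is not settled. The 4 R7 genes summed to 75.7, 95.4 and 103.7 CPM in iCON and to 71.0, 99.2 and 92.4 CPM in iCKO. *Rgs3*, below the minimum, was at 8.79 CPM in Lypd1-high and 27 in Calb2-high cells of iCON, and at 13.4 and 26.8 CPM in iCKO. *Rgs20*, also below the minimum, had 2 UMIs in the Calb2-high cells of iCON and was at 6.23 CPM in Lypd1-high cells.

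*Gnai1* was higher in Lypd1-high than in Calb2-intermediate cells, with 112 and 74.0 CPM in iCON and 143 and 95.9 CPM in iCKO, a log2 ratio of 0.56 in each. In iCKO the Lypd1-high cells with under 1000 CPM of *Calb2* were at 95.9 CPM of *Gnai1*, the level of Calb2-intermediate cells, and those with 1000 to under 10000 CPM at 152 CPM, a log2 ratio between them of 0.63 (0.33 to 0.99). In iCON these levels were 114 and 106 CPM. *Gnas* and *Gnb1* differed little between any of the ranges. The log2 ratios of Lypd1-high over Calb2-high cells were 0.04 and -0.01 for *Gnas* and -0.09 and -0.22 for *Gnb1*, in iCON and iCKO. The summed beta genes stood between 675 and 736 CPM in the 3 ranges of iCON and between 697 and 734 CPM in those of iCKO. The R4 genes summed to 28.4 CPM in Lypd1-high and 46.4 CPM in Calb2-high cells of iCON, and to 27.9 and 52.4 CPM in iCKO.

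The same limit of 1 was used between the libraries inside each range. None of 16 members lay past it in Lypd1-high, in Calb2-high or in Calb2-intermediate cells, where all genes gave 0.448%, 0.164% and 0.236%. *Gnal* in Lypd1-high cells came nearest, with the ratio of 0.98 given above. *Gnao1* in the same cells, below the minimum in both libraries, had the ratio of 1.12 given above. *Rgs10* in Calb2-high cells was at 21.6 CPM in iCON and 37.6 CPM in iCKO, a log2 ratio of 0.68 (0.40 to 1.08), below the minimum in both, and the ratio was 1.41 in Y-linked cells. *Rgs12* in Lypd1-high cells was at 66.1 and 48.2 CPM, a log2 ratio of -0.42 (-0.74 to -0.26) that turned to 0.23 in Y-linked cells. *Gnaq* in Calb2-high cells was at 28.4 and 42.4 CPM, also below the minimum.

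The Lypd1-high cells of the libraries differed in their *Calb2*. In iCON 140 of these cells had under 1000 CPM of *Calb2*, 39 had 1000 to under 10000 CPM and 1 had more. In iCKO the numbers were 30, 82 and 14. The division does not equalise *Calb2*: its mean was 184 CPM in iCON and 236 in iCKO under 1000 CPM, and 2317 and 4952 CPM at 1000 to under 10000 CPM. Mean *Lypd1* fell from the first to the second of these *Calb2* ranges, from 4288 to 3282 CPM in iCON and from 4280 to 3043 CPM in iCKO. It was 2130 CPM in the 14 iCKO cells. The part of *Lypd1* in differences between the *Calb2* ranges was not tested. When Lypd1-high cells were divided in this way, which was decided with the values in view, the *Rgs12* levels were 74.5 CPM in iCON and 72.0 in iCKO under 1000 CPM of *Calb2*, a log2 ratio of -0.05 (-0.46 to 0.29). At 1000 to under 10000 CPM of *Calb2* the *Rgs12* levels were 37.2 and 43.7 CPM, a log2 ratio of 0.21 (-0.14 to 0.77). Between these *Calb2* ranges 0 of 15 members in iCON and 0 of 16 in iCKO lay past a ratio of 1, against 0.0535% and 0.392% of all genes. *Rgs12* was lower at higher *Calb2*, with log2 ratios of -0.91 (-1.53 to -0.76) in iCON and -0.66 (-1.19 to -0.30) in iCKO.

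*Rgs10* went the same way, from 107 to 69.5 CPM in iCON and from 130 to 83.1 CPM in iCKO. *Gnal* was at 35.8 CPM under 1000 CPM of *Calb2* and 39.1 CPM at 1000 to under 10000 CPM in iCON, and at 77.7 and 73.1 CPM in iCKO. The log2 ratios of *Gnal* in iCKO over iCON were 1.02 (0.86 to 1.61) and 0.82 (0.59 to 1.39). *Gnal* was the 1 of 16 members past a ratio of 1 under 1000 CPM of *Calb2*, against 0.363% of all genes, and at 1000 to under 10000 CPM 0 of 15 were, against 0.55%. Under 1000 CPM *Gnal* met the minimum only in iCKO, where it is high, so this count supports nothing. *Gnao1* was at 16.2 and 19.2 CPM in iCON and at 34.4 and 43.5 CPM in iCKO, higher in iCKO in both *Calb2* ranges. The ratios of other members turned between the *Calb2* ranges. That of *Gng11* in iCKO over iCON was -0.90 (-1.59 to -0.54) under 1000 CPM and 0.16 (-0.24 to 0.53) at 1000 to under 10000 CPM, and that of *Gnai1* was -0.23 (-0.57 to 0.06) and 0.49 (0.24 to 0.72). In the 14 iCKO cells with at least 10000 CPM of *Calb2*, *Rgs12* was at 23.9 CPM, *Rgs10* at 84.1 CPM, *Gnal* at 100.4 CPM and *Gnao1* at 54.1 CPM, and the 1 such iCON cell allows no comparison.

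**Figure D4:**
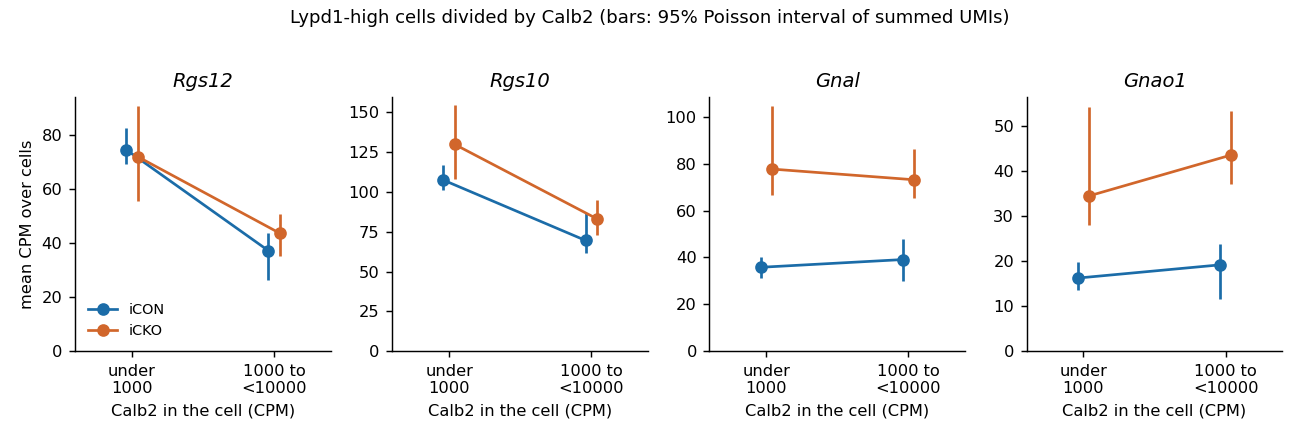
Mean CPM (vertical axis) of *Rgs12*, *Rgs10*, *Gnal* and *Gnao1* in Lypd1-high cells, divided by the *Calb2* of the cell (horizontal axis, CPM), in iCON (140 and 39 cells) and iCKO (30 and 82 cells). Bars are 95% Poisson intervals of summed UMIs. The lines of the libraries lie near each other and slope down for *Rgs12* and *Rgs10*, and run apart for *Gnal* and *Gnao1*.

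Other genes of G protein signalling were counted from lists of 39 effectors, 21 regulators and chaperones and 91 receptors, of which 34, 16 and 41 were listed. Between the libraries, 0 of 14 effectors and 0 of 2 receptors with enough RNA lay past a log2 ratio of 0.5, against 4.36% of all genes. The 1 regulator with enough RNA, *Pdcl3*, a phosducin-like protein, was lower in iCKO, with 50.1 CPM in iCON and 27.8 CPM in iCKO, a log2 ratio of -0.75 (-0.96 to -0.62). *Pdcl3* met the minimum only in iCON, where it is higher. The median log2 ratio of the effectors was 0.16, where that of all genes was 0.01. Between Lypd1-high and Calb2-high cells of iCON, 2 of 15 effectors and 1 of 4 receptors were past a ratio of 1, all higher in Lypd1-high cells, against 2.57% of all genes. These genes met the minimum only in Lypd1-high cells, so their number and shared direction support nothing.

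*Prkar2b*, a regulatory subunit of the cAMP-dependent kinase, was at 92.1 CPM in Lypd1-high and 20.2 CPM in Calb2-high cells of iCON, a log2 ratio of 1.94 (1.91 to 2.55). In iCKO it was at 82 and 32.8 CPM, a log2 ratio of 1.2, and was the 1 of 14 effectors past the limit, against 1.5% of all genes. There too *Prkar2b* met the minimum only in Lypd1-high cells, where it is high. *Rasgrf1*, a Ras exchange factor, was at 52.6 and 4.88 CPM in iCON, a log2 ratio of 2.54, and at 34.1 and 10.1 CPM in iCKO, below the minimum in both, a log2 ratio of 1.37. *Grm8*, a metabotropic glutamate receptor that couples to Gi/o, was at 96.6 and 1.07 CPM in iCON, and was past the limit in iCKO too, with 87.7 and 2.06 CPM. *Grm8* is also on the list of type Ic markers, so its place beside *Lypd1* is no separate result. In Lypd1-high over Calb2-intermediate cells of iCON the same genes, 2 of 15 effectors and 1 of 4 receptors, were past the limit, against 0.723% of all genes, with log2 ratios of 1.23 for *Prkar2b*, 1.54 for *Rasgrf1* and 3.56 for *Grm8*. In iCKO *Grm8* was, at 3.34, against 0.682% of all genes, while *Prkar2b* was at 0.77 and *Rasgrf1*, below the minimum, at 0.06. Each gene past the limit in these comparisons met the minimum only in Lypd1-high cells, so their numbers support nothing. Of members and listed pathway genes, those past the limit between Lypd1-high and Calb2-high cells of iCON were thus *Rgs12*, *Rgs10*, *Prkar2b*, *Rasgrf1* and *Grm8* on the Lypd1-high side, and *Gnao1* on the Calb2-high side.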

How the data were processed

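Single-cell RNA was measured in 869 cells of 2 libraries, 1 per group, and no barcode was shared between them. Cell Ranger, Seurat and the build mm10 are named, without a role, per the submitters' processing notes; filters on cells and genes are not given in the sources used here. Values in the deposited table are on a natural log scale, ln(1 + CPM), in each cell. This was read from the values, since linear values summed to 1000000 in every cell. The other deposited file gives the library of each cell as text, a unit of another kind. All of the nonzero values (100%) lay within 1e-06, relative, of a whole multiple of the smallest value of the cell, so UMIs were computed from them.

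Levels are means over cells of CPM. Ratios are log2 of 2 means with 5 CPM added to each. Genes needed a mean of at least 50 CPM and a UMI in at least 25% of cells in a group. A member was counted past a log2 ratio of 0.5 between libraries, and of 1 in comparisons of ranges. Exact Poisson and conditional binomial intervals (95%) cover counting error of summed UMIs only. For a count of 0 the Poisson interval was instead set to run from 0 to 3 counts. The ratio between libraries and its interval were tested on simulated Poisson counts. These had no ranges and no added spread between cells, so the comparisons of ranges are not covered. Every member is accounted for. Members past a limit are given in each range, and the genes of the pathway lists are named where they are past it. The members, lists, ranges and tests were chosen with earlier results of these data known. Scrublet (scanpy 1.11.5) called 1 iCON and 4 iCKO cells doublets, which were kept. Alternatives were pooled UMIs, pseudocounts of 1 and 20 CPM, no minimum, median centring, thinning to 20000 UMIs, either sex, other cuts, and cells left out as doublets or by type II markers. The division of Lypd1-high cells by *Calb2*, the type II marker cells and the split by *Runx1* UMI were added after the values were seen. Comparisons of cells by their RNA of glia and 2 genes of the glia list are not reported here. Gene positions are from GENCODE M21. Python 3.11.15, numpy 2.4.6, pandas 2.3.3 and scipy 1.17.1 were used. Where genes overlap, whether the counting used strand is not given in the sources used here.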

Additional observations from a re-analysis of the deposited data

How the results depend on the processing

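No paired analysis was possible because each group has 1 library, and for the same reason no replicate could be left out. None of 122 alternative values of the ratios past a limit changed direction. Shares in parentheses are those of all genes past the limit under the same alternative. Counts are descriptions and support nothing, since the minimum, where used, need be met in only 1 of the groups compared. The number of members past the limit between the libraries (2) was 3 in *Xist*-only cells (7.38%), where *Gnb2* was at -0.51, 3 with no minimum (3.38%), which adds *Gng2*, and 1, *Gnal*, with ranges weighted equally (2.63%). For Lypd1-high over Calb2-high cells of iCON, 3 became 5 with no minimum (1.98%). For Lypd1-high over Calb2-intermediate cells of iCON, 1 became 2, *Rgs12* and *Rgs10*, with a pseudocount of 1 CPM (0.803%), with *Lypd1* of at least 2000 CPM (0.751%), with *Lypd1* at 0 in the *Calb2* ranges (0.886%) and with the *Calb2* cut at 15000 CPM (0.751%). For Calb2-intermediate over Calb2-high cells of iCON, 1 became 3 with no minimum (0.832%). In iCKO, Lypd1-high over Calb2-high cells (1) gave 0 with a pseudocount of 20 CPM (0.885%), where *Rgs10* was at 0.99. They gave 2, *Rgs10* and *Rgs12*, with no minimum (1.19%), with *Lypd1* of at least 2000 CPM (1.57%) and with Lypd1-high cells under 10000 CPM of *Calb2* (1.69%). Calb2-intermediate over Calb2-high cells (1) gave 0 with a pseudocount of 20 CPM (0.348%) and with the *Calb2* cut at 15000 CPM (0.407%), and 2 with no minimum (0.423%). Between the libraries in Lypd1-high cells, 0 became 1, *Gnal*, with pooled UMIs (0.502%), a pseudocount of 1 CPM (0.527%), *Xist*-only cells (0.681%) and *Lypd1* of at least 2000 CPM (0.421%), and 1, *Gnao1*, with no minimum (0.354%). In Calb2-intermediate cells 0 became 1, *Gnal*, in *Xist*-only cells (0.387%).

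Y-linked cells are few, 202 in iCON and 82 in iCKO. Between the libraries they gave 4 members (5.89%), *Gnal* and *Gnao1* higher and *Gng5* and *Gng11* lower in iCKO, and in Calb2-intermediate cells (86 and 16) 2 (1.26%), *Gng5* and *Gng11*. In iCON they gave 6 (3.61%) for Lypd1-high over Calb2-high cells (79 and 28 cells) and 3 (1.46%) for Calb2-intermediate over Calb2-high cells. In iCKO they gave 6 (3.12%) for Lypd1-high over Calb2-high cells (20 and 36 cells) and 4 (2.57%) over Calb2-intermediate cells (16 cells), *Gng11*, *Rgs10*, *Rgs12* and *Gnaq*. Calb2-intermediate over Calb2-high cells gave 2 (0.963%), *Gnal* and *Gnao1*. With no minimum all 41 members were counted. The cause of the other moves was not tested. The log2 ratio between the libraries ranged from 0.58 to 1.19 for *Gnal* and from 0.42 to 0.90 for *Gnao1*. That of Lypd1-high over Calb2-high cells of iCON ranged from 1.80 to 3.53 for *Rgs12*, from 1.52 to 2.73 for *Rgs10* and from -1.99 to -1.28 for *Gnao1*. Depth limits the members with few UMIs, and thinning left out 8 iCON and 2 iCKO cells.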

Other observations

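Cells with a UMI of at least 4 of 6 markers of type II spiral ganglion neurons, the thin afferents of outer hair cells, were 15 in iCON and 4 in iCKO. The markers were *Prph*, *Gata3*, *Th*, *Plk5*, *Smad3* and *Etv4*. The 15 iCON cells lay outside the *Lypd1* and *Calb2* ranges, had no UMI of *Smad3* or *Etv4*, and met the rule by the other 4. Both absent markers had UMIs in Lypd1-high and Calb2-intermediate cells of iCON, where *Th* and *Plk5* had none. In iCKO the cells outside the ranges had no *Etv4* UMI. The median depth of the type II marker cells was 28092 UMIs in iCON, where the other 447 cells had 50273. In iCON their *Gnai2* level was 237 CPM (per cell 117 lowest, 202 median, 394 highest), against 74.8 CPM in the other cells. *Gng2* was at 121 CPM against 24.7 CPM, *Gnaq* at 110 CPM against 42.6 CPM and *Rgs17* at 212 CPM against 109 CPM. *Gnb4* had 16 UMIs in these 15 cells and 34 in the other 447, which is 34.4 CPM against 1.8 CPM. *Gnao1* was at 82.4 CPM against 31.4 CPM and *Rgs10* at 118 CPM against 66.9 CPM. Lower in the type II marker cells were *Gnb5*, with 73.7 CPM against 208 CPM, and *Rgs7bp*, with 122 CPM against 492 CPM. *Gnal* was at 7.09 CPM (3 UMIs) against 43.6 CPM, *Rgs12* had 1 UMI, and *Rgs2* had 0 UMIs, where the other cells were at 23.1 CPM. In the 4 cells of iCKO *Gnai2* was at 189 CPM, against 58.3 CPM in the other 403 cells. *Gng2* was at 163 against 13.7 CPM, *Gnaq* at 199 against 42.7 CPM, *Rgs17* at 274 against 96.1 CPM and *Rgs7bp* at 109 against 434 CPM. *Gnb4* had 1 UMI there, 10.96 CPM against 1.19 CPM, and *Gnal* had 3 UMIs, 35.7 CPM against 88.1 CPM. In these iCKO cells *Gnao1* was at 128 CPM against 59.4 CPM and *Rgs10* at 153 CPM against 62.5 CPM.

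The Calb2-high cells of iCKO had 92.9 CPM of *Runx1*, where those of iCON had 15.9 CPM. Of these iCKO cells, 149 had a *Runx1* UMI and 52 had none. *Rgs10* was at 42.3 CPM in the former and 24.0 CPM in the latter, a log2 ratio of 0.70 (0.39 to 1.36), below the minimum in both. *Gnal* was at 98.2 and 112 CPM and *Gnao1* at 78.4 and 74.8 CPM. *Rgs6*, past the minimum, was lower in the former, 47.9 against 67.2 CPM, a log2 ratio of -0.45 (-0.78 to -0.15). None of 16 members with enough RNA lay past a ratio of 1, against 0.275% of all genes. Whether a *Runx1* UMI in a cell marks an intact *Runx1* allele was not tested.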
